A study of Mus musculus with 11 samples.

Results

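The genes described here are the mouse zinc finger genes whose symbol is Zfp followed by a 3-digit number that starts with 6, 7, 8 or 9, with or without a letter, such as Zfp623 or Zfp729b. Pseudogene and opposite-strand entries marked as such in the symbol were left out. The rule was applied to gene names alone, and it found 185 members among the 48709 gene IDs of each count table, of which 182 are annotated as protein coding. Of these, 156 had at least 10 counts in at least 5 libraries and were tested. The other 29 were not tested, 7 of them had 0 counts in all libraries, and the highest total of an untested member was 97 counts over all 11 libraries.

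RNA was measured in primary hippocampal neurons, cells taken from mouse hippocampus and grown for 10 days at 20% oxygen. The hypoxia group (n = 5 libraries) was then kept at 1% oxygen for 4 h in a hypoxia workstation. The control group (n = 6 libraries) stayed at 20% oxygen and is described in the labels as cells of the same isolation. The labels give no genotype, age or strain. The labels do not say which libraries came from separate dishes or isolations, so p-values speak only to how these libraries vary, part of which may be technical. The comparison asks how these genes respond to a short fall in oxygen.

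Zinc finger genes of the C2H2 type form the largest class of transcription factors in mammals, and many lie side by side in clusters that grew by gene duplication. Many members carry a KRAB domain, which binds Trim28 (KAP1). Trim28 brings in Setdb1, a histone H3 lysine 9 methyltransferase, and HP1 proteins, and this machinery is best known for silencing transposable elements. The number in a Zfp symbol is a naming order and not a family branch, so the class mixes KRAB proteins with zinc finger proteins of other kinds.

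In the translation of the longest annotated transcript, 127 members matched a KRAB box A pattern and 55 did not. Members held a median of 11 finger matches, with a range of 0 to 33. The pattern asks for the usual spacing of C2H2 residues, and 10 members had 0 matches to it, Zfp608, Zfp609, Zfp703, Zfp704 and Zfp839 among them. Duplication and overlap with other genes limit what 50-base reads can tell apart. More than 10% of the 50-base windows in the transcripts of 65 members also occurred in another gene, and 44 of these were tested. Windows were compared on both strands. The count therefore includes members that share windows with a gene overlapping them at the same place, such as Zfp652 and Zfp704, and does not measure duplication alone.

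The 250 bases before the RefSeq start site (GRCm38.p6) are shown for 4 members that changed, 2 of them higher and 2 lower, because they show which core letters of the hypoxia-inducible factor (HIF) motif are and are not near the start of genes that moved in either direction. Capitals mark ACGTG or GCGTG, the HIF core letters, and CCAAT, each searched on both strands, so that CACGC is GCGTG on the other strand. Each is written 5′ to 3′ in the direction of transcription. Zfp954 lies at chr7:7121477-7121726 on the minus strand. Zfp719 is at chr7:43579336-43579585, Zfp839 at chr12:110850029-110850278 and Zfp961 at chr8:71950816-71951065, all on the plus strand.
Zfp954: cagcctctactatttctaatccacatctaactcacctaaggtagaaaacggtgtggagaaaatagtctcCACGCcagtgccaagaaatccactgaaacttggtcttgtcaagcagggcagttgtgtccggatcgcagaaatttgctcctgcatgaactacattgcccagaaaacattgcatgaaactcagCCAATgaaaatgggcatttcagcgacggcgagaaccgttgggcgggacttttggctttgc
Zfp719: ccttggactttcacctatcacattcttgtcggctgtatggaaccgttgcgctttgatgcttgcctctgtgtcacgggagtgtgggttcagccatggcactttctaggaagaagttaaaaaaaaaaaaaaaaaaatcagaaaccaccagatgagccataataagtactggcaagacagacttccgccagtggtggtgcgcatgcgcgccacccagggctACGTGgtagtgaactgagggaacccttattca
Zfp839: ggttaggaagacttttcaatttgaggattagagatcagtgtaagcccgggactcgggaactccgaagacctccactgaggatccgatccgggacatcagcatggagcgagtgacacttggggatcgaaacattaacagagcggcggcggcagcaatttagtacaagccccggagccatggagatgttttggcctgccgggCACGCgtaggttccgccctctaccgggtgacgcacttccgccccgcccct
Zfp961: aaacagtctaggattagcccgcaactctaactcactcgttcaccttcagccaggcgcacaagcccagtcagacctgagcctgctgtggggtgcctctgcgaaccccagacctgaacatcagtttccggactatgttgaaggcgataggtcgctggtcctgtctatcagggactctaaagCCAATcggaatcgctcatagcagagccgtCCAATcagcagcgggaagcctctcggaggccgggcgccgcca

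Zfp719 and Zfp954, both higher in hypoxia, and Zfp839, lower in hypoxia, each held 1 HIF core match, while Zfp961, also lower, held 0 matches and 2 CCAAT boxes. RefSeq promoters were matched for 157 of the 185 members, 187 promoters in all. ACGTG or GCGTG occurred in 13 of 29 promoters of members called higher (44.8%), 7 of 17 of members called lower (41.2%) and 52 of 117 of members not called (44.4%). The share was 54.0% over the 15004 promoters of all tested genes and 38.6% over all 32851 promoters. CCAAT occurred in 106 of 187 member promoters (56.7%), against 34.8% of the promoters of tested genes. Among members it was in 44.8% of promoters of those called higher and 58.8% of those called lower. A match is a description of letters and not a bound site.

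Libraries held 22688096 to 31917157 counts in hypoxia and 16619493 to 31416241 in control, and genes tested held 99.9% of all counts. Of 15 listed HIF target genes, 13 were higher in hypoxia in edgeR's quasi-likelihood test and 0 were lower there, at an unadjusted p under 0.05 and in DESeq2, with a median log2 fold change of 1.08. Markers of excitatory neurons summed to 4434 to 4718 CPM in hypoxia and 4140 to 4361 CPM in control, where CPM is the read count scaled to a common library size after TMM normalization. Astrocyte markers were also high, at 3372 to 3692 CPM in hypoxia and 3346 to 3689 CPM in control. Microglial markers summed to 19.0 to 22.2 CPM in hypoxia and 19.1 to 21.4 CPM in control, with Cx3cr1, P2ry12, Itgam and Tyrobp under 1 CPM. In bulk RNA, fewer cells of a type and less RNA per cell cannot be told apart.

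Among the tested members, 31 were higher in hypoxia (19.9%), 16 were lower (10.3%) and 109 passed in neither direction, by edgeR's quasi-likelihood test at a Benjamini-Hochberg adjusted p under 0.05 over all genes. Of all 16319 genes tested, 10.2% were called higher and 12.8% lower, which makes 23% in either direction. The members' share of higher calls was thus above the background, and their share of lower calls was slightly below it. The changes were small. Those called higher rose 1.12-fold to 1.5-fold, with a median of 1.21-fold, and those called lower fell by 6.71% to 27.1%, with a median of 16.4%. The median log2 fold change was 0.04 over the tested members and -0.02 over all genes, and 86 members had a positive and 70 a negative value. All 5 hypoxia libraries lay above all 6 control libraries for 21 members (13.5%), against 6.78% of all genes. They lay below all controls for 6 members (3.85%), against 7.25% of all genes.

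**Figure D1:**
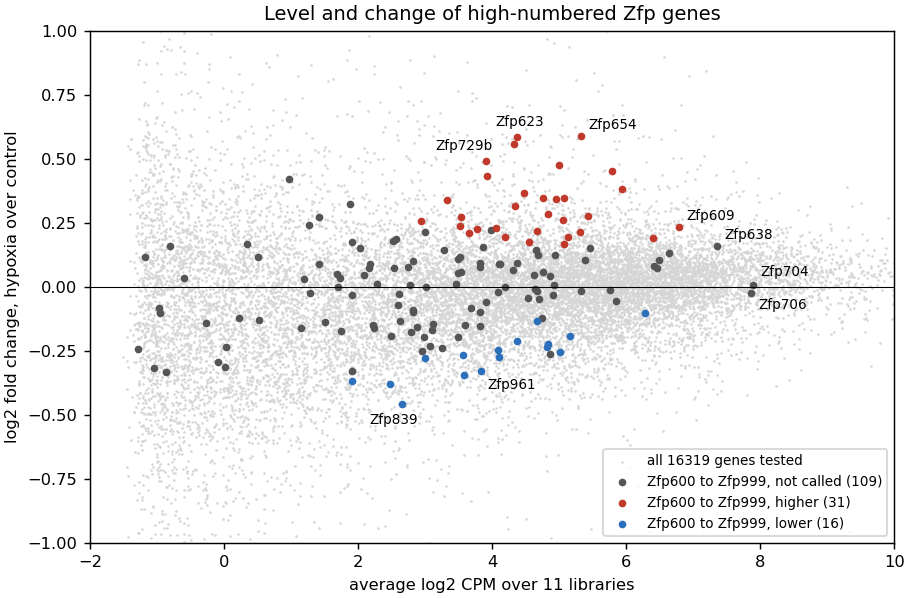
Log2 fold change (hypoxia over control, vertical) against average log2 CPM over the 11 libraries (horizontal) for all 16319 genes tested in light grey and for the 156 tested members in red (31 higher), blue (16 lower) and dark grey (109 not called). The axes stop at -1 and 1 and at -2 and 10, so some other genes lie outside them; called members lie within 0.59 of no change, and the most abundant members, Zfp704 and Zfp706, lie near 0.

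The counts changed when GC content was corrected for. Tested members had a median GC content of 42.5%, against 49.4% for the other genes tested. After a GC correction per library, 52 members were called higher and 13 lower, so that 80.0% of member calls were higher in place of 66.0%. Over all genes, higher calls then made up 60.9% of calls in place of 44.4%. Of all genes tested, 18.1% were called higher and 11.6% lower, and their median log2 fold change moved from -0.02 to 0.02. All 31 members called higher without the correction were called higher with it, and 13 of the 16 lower calls were kept.

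Most calls lay among the more abundant members. Tested members had a median of 11.9 CPM, against 16.2 CPM over all genes tested. Above 8 CPM, 30 of 96 members were called higher (31.2%) and 12 lower (12.5%), against 14.3% and 13.7% of the 9944 other genes at that abundance. At or below 8 CPM, 1 of 60 members was called higher and 4 were called lower, against 3.46% and 11.3% of 6219 other genes. In the bin of 32 to 64 CPM, 9 of 16 members were called higher (56.2%), against 14.9% of other genes. With the other genes weighted to the members' abundance, 8.65% were called higher and 15.0% lower.

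**Figure D2:**
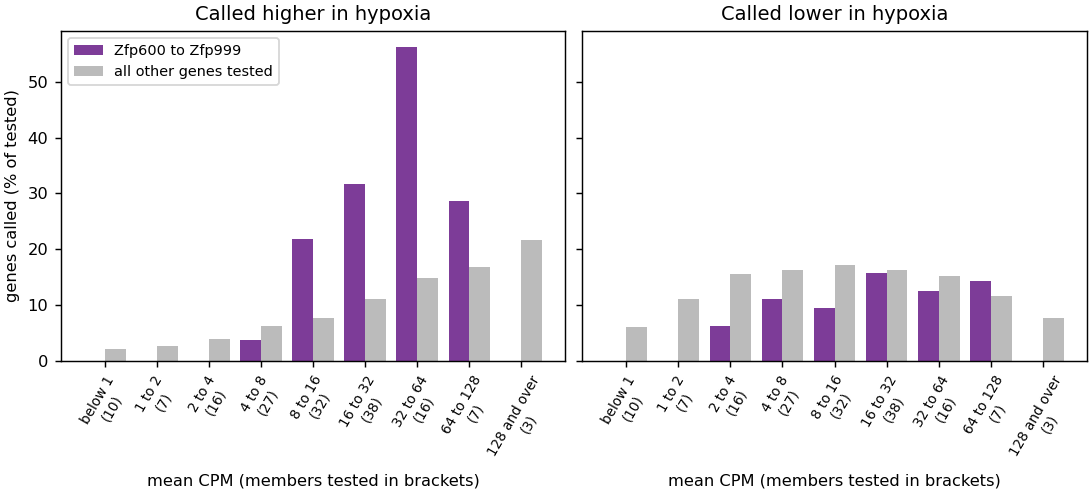
Percentage of tested genes called higher (left panel) and lower (right panel) in hypoxia, by bins of mean CPM over all libraries, for members (purple) and all other genes tested (grey), with the number of members in brackets. Members exceed other genes in higher calls in each bin from 8 CPM up to the last but one, where the bins hold 7 to 38 members, and the 3 members in the last bin were not called.

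The Zfp genes with numbers below 600 were counted in the same way. Of 205 tested, 45 were higher (22%) and 24 lower (11.7%), with a median log2 fold change of 0.03. Among the high-numbered members with a KRAB match, 19 of 105 were higher (18.1%) and 9 lower (8.57%). Of the 49 without one, 11 were higher (22.4%) and 7 lower (14.3%). A KRAB box that departs from the pattern can be missed, so a member without a match may still hold one. Of the 112 tested members with at most 10% of shared windows, 25 were higher (22.3%) and 12 lower (10.7%). Of the 44 above that, 6 were higher (13.6%) and 4 lower (9.09%). All genes tested had 10.2% higher and 12.8% lower. The differences between these classes were not tested. Together the members took 0.355 ± 0.00836% of all counts in hypoxia (SD, n = 5) and 0.339 ± 0.0118% in control (SD, n = 6). The groups overlapped, with 0.342% to 0.363% in hypoxia and 0.327% to 0.360% in control. The Zfp genes below 600 took 0.552 ± 0.00945% in hypoxia and 0.537 ± 0.0154% in control (SD).

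The 2 members with the smallest p-values carry no KRAB match. Zfp623 (ENSMUSG00000050846, chr15:75940952-75949400, plus strand), a protein of 12 finger matches, stood at 26.2, 24.8, 24.7, 25.5 and 24.3 CPM in hypoxia, against a lowest of 15.6, a median of 16.7 and a highest of 18.2 CPM in control. The groups did not overlap. Its mean was 25.1 ± 0.731 CPM in hypoxia (SD, n = 5) and 16.7 ± 0.857 CPM in control (SD, n = 6), a log2 fold change of 0.59 ± 0.05 (SE) with an adjusted p of 4.52e-07 in edgeR's quasi-likelihood test. Zfp654 (ENSMUSG00000047141, chr16:64780347-64851652, minus strand) had 44.1, 49.6, 50.4, 52.0 and 48.2 CPM in hypoxia, against 30.3 (lowest), 31.3 (median) and 35.9 CPM (highest) in control. Here too every hypoxia library was above every control library. Its log2 fold change was also 0.59 ± 0.05 (SE; adjusted p = 1.95e-06, edgeR).

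Several KRAB members rose as well. Zfp954 (ENSMUSG00000062116, chr7:7114690-7121488) had 18.1, 18.3, 17.5, 18.6 and 16 CPM in hypoxia, and 12.3, 12.5 and 12.8 CPM as lowest, median and highest in control. The control libraries had an SD of 0.157 CPM, and the log2 fold change was 0.49 ± 0.05 (SE; adjusted p = 7.90e-06, edgeR). Zfp788, with 23 finger matches, averaged 64.7 ± 5.10 CPM in hypoxia and 47.3 ± 3.45 CPM in control, a log2 fold change of 0.46 (adjusted p = 3.19e-05, edgeR). Zfp948 averaged 37.6 ± 2.11 CPM in hypoxia and 27.2 ± 2.63 CPM in control, a log2 fold change of 0.48 (adjusted p = 5.35e-05, edgeR). The groups did not overlap for any of these KRAB genes.

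Zfp719, whose promoter is printed above, held 38.3, 38.8, 38.2, 38.4 and 36.2 CPM in hypoxia, against 28 (lowest), 29.6 (median) and 32.6 CPM (highest) in control, with no overlap. Its log2 fold change was 0.35 ± 0.04 (SE; adjusted p = 3.28e-05, edgeR). Zfp869 (log2 fold change 0.43, adjusted p = 0.000103, edgeR) and Zfp605 (0.34, adjusted p = 0.000278, edgeR) are further KRAB genes whose groups were apart. Exons of Zfp605 overlap those of the antisense gene Gm15484 by 132 bases. Zfp770 has no KRAB match and rose by a log2 fold change of 0.38 (adjusted p = 3.37e-05, edgeR), with 70.1 ± 4.77 CPM in hypoxia and 53.9 ± 2.53 CPM in control. Reads of some other called genes are uncertain. Zfp729b, a KRAB gene, rose by 0.56 on the log2 scale (adjusted p = 7.38e-05, edgeR). However, 39.9% of its windows also occur in other genes, mainly Gm49345, whose exons overlap its own by 1980 bases on the same strand. Zfp780b rose by 0.37 (adjusted p = 0.000156, edgeR), with 16.4% of windows shared, mainly with Zfp974.

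**Figure D3:**
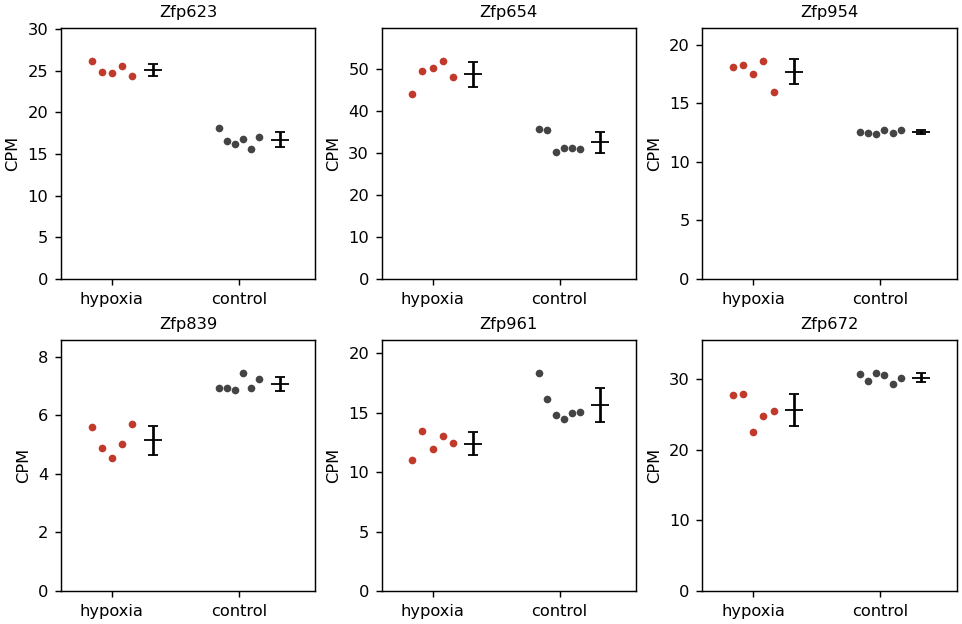
CPM in each library of 3 members that were higher (top row) and 3 that were lower (bottom row) in hypoxia, with hypoxia on the left in red and control on the right in grey and the mean and SD beside the points. Vertical axes start at 0, and in each panel all 5 hypoxia points lie on one side of all 6 control points.

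The 16 members that fell had a median of 17 CPM, and Zfp839 had the smallest p among them. Zfp839 (ENSMUSG00000021271, chr12:110850253-110869996, plus strand) had 5.60, 4.87, 4.55, 5.01 and 5.72 CPM in hypoxia, against 6.88 (lowest), 6.95 (median) and 7.45 CPM (highest) in control. The groups did not overlap, and the mean was 27.1% lower in hypoxia, at a log2 fold change of -0.46 ± 0.08 (SE; adjusted p = 0.000428, edgeR). Zfp961 (chr8:71951038-71993792), a KRAB gene, had 11, 13.5, 11.9, 13 and 12.5 CPM in hypoxia, against 14.5 (lowest), 15.0 (median) and 18.3 CPM (highest) in control. Its log2 fold change was -0.33 (adjusted p = 0.00349, edgeR), again without overlap, though its exons overlap the antisense gene Cyp4f18.

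Zfp672 (chr11:58315114-58330339, minus strand) and Zfp692 (chr11:58307069-58314627, plus strand) are direct neighbours, and both fell. Zfp672 had 27.7, 28, 22.5, 24.7 and 25.5 CPM in hypoxia, against 29.3 (lowest), 30.4 (median) and 30.9 CPM (highest) in control, with no overlap (log2 fold change -0.24, adjusted p = 0.00466, edgeR). Its exons overlap those of the antisense gene 1700047K16Rik by 126 bases. Zfp692, whose human counterpart binds the AICAR response element of gluconeogenic genes, averaged 10.6 ± 1.11 CPM in hypoxia and 12.7 ± 0.821 CPM in control, with overlapping groups (log2 fold change -0.26, adjusted p = 0.0175, edgeR). Zfp932 represses endogenous retroviruses of the ERVK class in mouse embryonic stem cells together with its copy Gm15446. It averaged 10.3 ± 0.930 CPM in hypoxia and 13.2 ± 2.07 CPM in control (log2 fold change -0.34, adjusted p = 0.0160, edgeR), but 37.0% of its windows are shared with other genes, mainly Gm15446. Zfp865 fell by 0.27 on the log2 scale (adjusted p = 0.00643, edgeR), and its exons overlap 4 other genes.

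The other lower members named by the rule had groups that overlapped. Zfp689 and Zfp747, both KRAB genes of the same stretch of chromosome 7, fell by 0.38 and 0.37 on the log2 scale (adjusted p = 0.0101 and 0.0180, edgeR). Of the windows of Zfp747, 34.4% are shared, mainly with 9130019O22Rik. For Zfp689 12.7% are shared, mainly with the antisense gene B130055M24Rik, whose exons it overlaps. Zfp866, Zfp870, Zfp799 and Zfp760, also KRAB genes, fell by 0.22, 0.25, 0.19 and 0.21 on the log2 scale, with adjusted p-values of 0.00641, 0.0130, 0.0161 and 0.0241 in edgeR. Exons of Zfp866, Zfp870 and Zfp799 overlap those of other genes, by 437, 438 and 482 bases, and those of Zfp760 do not. The call of Zfp760 was lost without hypoxia 1, 3 or 5 (adjusted p up to 0.0609, edgeR) and with a GC correction per library (log2 fold change -0.11, adjusted p = 0.122, edgeR), and that of Zfp799 without control 2 (adjusted p = 0.0506, edgeR).

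**Figure D4:**
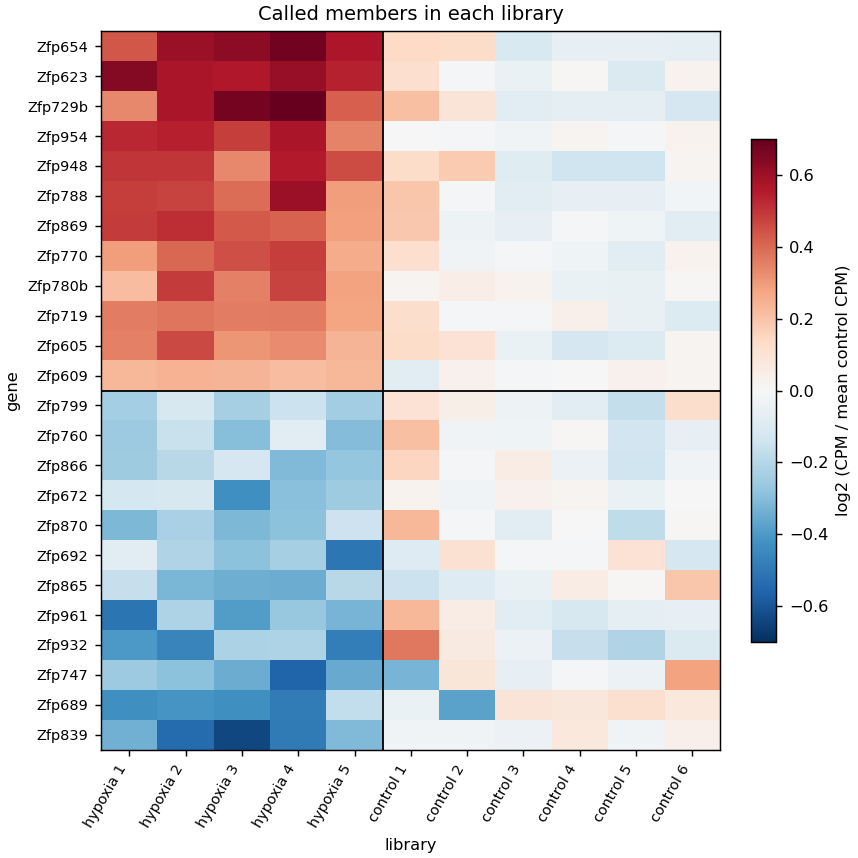
Colour gives log2 of the CPM over the control mean in each of the 5 hypoxia (left) and 6 control (right) libraries for the 12 members called higher and the 12 called lower with the smallest p-values, ordered by fold change. Zfp609 is even across hypoxia libraries, and the strongest colours lie among the higher members, such as Zfp654, Zfp623 and Zfp729b.

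Members with a described role were then read whatever their values, and 3 of 20 were higher (15%) and 4 lower (20%). The shares over all genes tested were 10.2% higher and 12.8% lower. Zfp609 works with the cohesin loader Nipbl and the Integrator complex in mouse neural progenitors. It had 120.4, 121, 121, 119 and 120.5 CPM in hypoxia, against 97.2 (lowest), 103 (median) and 105 CPM (highest) in control. The hypoxia libraries were nearly alike, and all were above the controls (log2 fold change 0.23 ± 0.03 SE, adjusted p = 6.85e-05, edgeR). Zfp608, the close relative of Zfp609, averaged 90.1 ± 2.68 CPM in hypoxia and 79.0 ± 2.27 CPM in control, again with no overlap (0.19, adjusted p = 0.000935, edgeR). The increase was 1.18-fold for Zfp609 and 1.14-fold for Zfp608, and the difference between them was not tested.

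Zfp804a, the mouse counterpart of a human gene at a schizophrenia-associated locus, had 52.2, 46.0, 53.3, 49.4 and 37.0 CPM in hypoxia, against 35.8 (lowest), 38.5 (median) and 46.4 CPM (highest) in control. It was called higher (log2 fold change 0.28, adjusted p = 0.0243, edgeR), but hypoxia 2 and hypoxia 5 lay inside the control range. Without hypoxia 1, 3 or 4 the call was lost, with adjusted p up to 0.0710 in edgeR. Zfp746 (PARIS), a parkin substrate that represses the gene for PGC-1α, averaged 24.1 ± 0.933 CPM in hypoxia and 26.4 ± 1.01 CPM in control (log2 fold change -0.13, adjusted p = 0.0414, edgeR). This call was lost in 14 of 19 other settings, among them without control 2, 3, 5 or 6 and without hypoxia 2, 3, 4 or 5. Zfp618, a partner of the 5-hydroxymethylcytosine reader Uhrf2, averaged 7.05 ± 0.501 CPM in hypoxia and 8.57 ± 0.980 CPM in control (-0.28, adjusted p = 0.0290, edgeR), and without control 3 or 5 or hypoxia 1, 3 or 4 its call was lost, with adjusted p up to 0.0794.

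Zfp809 binds the proline-tRNA primer binding site of murine leukaemia virus and recruits Trim28. It had 6.88, 6.19, 5.16, 6.19 and 5.53 CPM in hypoxia, against 5.21 (lowest), 6.02 (median) and 6.83 CPM (highest) in control. The groups overlapped throughout, and the log2 fold change was -0.03 ± 0.09 (SE; adjusted p = 0.873, edgeR). Zfp638, whose human counterpart brings the HUSH complex to retroviral DNA, averaged 173 ± 16.6 CPM in hypoxia and 155 ± 13.6 CPM in control (0.16, adjusted p = 0.0901, edgeR). Hypoxia 5 had 145 CPM while the other hypoxia libraries had 176 to 185 CPM, and without it Zfp638 passed the test (log2 fold change 0.22, adjusted p = 0.00858, edgeR), as it did without control 1 (adjusted p = 0.0153, edgeR).

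Zfp704 and Zfp706, the most abundant members, hardly differed between groups, while Zfp638, the next most abundant, is given above. Zfp704, known as a glucocorticoid-induced gene, had 238, 245, 242, 244 and 225 CPM in hypoxia, against 224 (lowest), 234 (median) and 261 CPM (highest) in control (log2 fold change 0.01, adjusted p = 0.905, edgeR). Zfp706, a small protein that represses Klf4 in mouse embryonic stem cells, averaged 232 ± 7.49 CPM in hypoxia and 236 ± 11.9 CPM in control (-0.02, adjusted p = 0.707, edgeR). Per kilobase of exon, Zfp706 was the higher of the pair, at 46.5 CPM per kb in hypoxia and 47.3 in control, while Zfp704 had 15.7 CPM per kb in hypoxia and 15.6 in control. Some reads of both are uncertain, as 16.5% of the windows of Zfp704 are shared, mainly with the antisense gene C030034L19Rik. For Zfp706 8.42% are shared, mainly with Gm4262. The remaining described members did not pass either, at log2 fold changes between -0.03 and 0.12. They were Zfp622 (60S ribosome maturation, shown for the human protein), Zfp644 (a G9a and GLP partner in human cells), Zfp652, Zfp667, Zfp687, Zfp703, Zfp711 (an X-linked gene whose human protein works with PHF8), Zfp827 and Zfp830.

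Many members lie in runs, stretches in which each lies within 500 kb of the next. Of 81 tested members in runs of 4 or more, 16 were higher (19.8%) and 9 lower (11.1%). Of the 75 others, 15 were higher (20%) and 7 lower (9.33%), where all genes tested had 10.2% higher and 12.8% lower. On chromosome 13 (chr13:66669928-67687071), 9 of 11 members were tested, 8 of these had a positive log2 fold change, and Zfp759, Zfp729b, Zfp729a and Zfp738 were called higher, with a median of 0.21. The run at chr7:27689340-28014115 had Zfp626, Zfp780b and Zfp850 higher of 6 tested, with a median of 0.16. The stretch at chr8:69209038-69791178, held both directions side by side, with Zfp930, Zfp868 and Zfp869 higher and Zfp866 lower. The run at chr7:127244274-127885996 went the other way. There 7 of 9 tested members had a negative value, Zfp747 and Zfp689 were lower, and the median was -0.19. In the largest fully tested run, on chromosome 17 (chr17:21383748-22867134), 1 of 14 members was higher and 2 were lower. Members of a run can share reads, and the differences between runs were not tested.

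**Figure D5:**
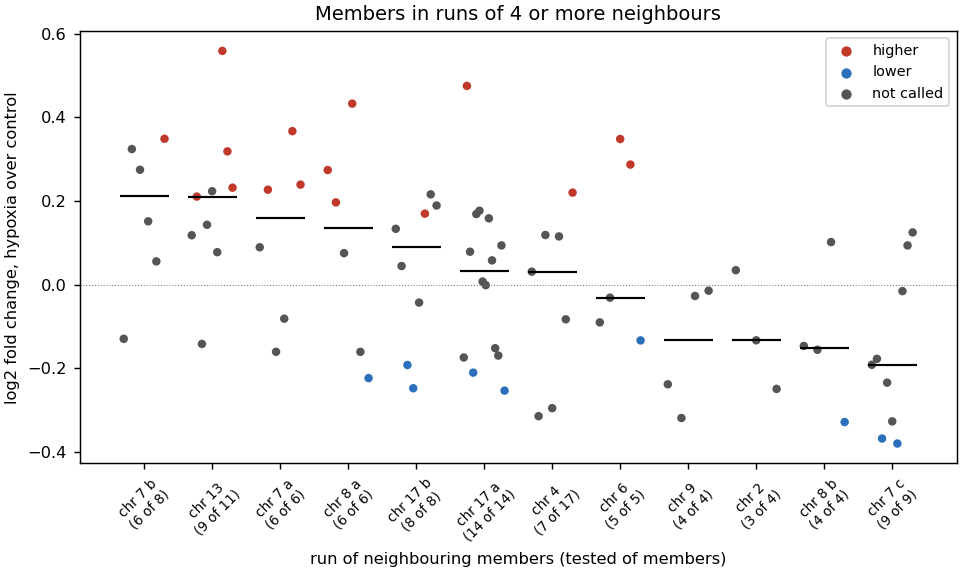
Log2 fold change (hypoxia over control) of each tested member in the 12 runs with tested members, ordered by the run's median (black bar), with called members in red (higher) and blue (lower). Medians lie between 0.21 and -0.19, and most runs hold members on both sides of 0.

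Features that the rule did not use were set beside the calls. The median GC content was 42.5% for members called higher, 47.5% for those called lower and 42.2% for those not called, so that higher and uncalled members were alike. Among all other genes it was 49.2% for higher, 47.7% for lower and 49.7% for genes not called. Median abundance was 25.4 CPM for higher, 17 CPM for lower and 7.81 CPM for members not called, and all other genes had the same order, at 50.8, 16.6 and 13 CPM. The median number of finger matches was 12 for members called higher and 10.5 both for those called lower and for those not called. Of the 31 higher and 16 lower members together, 16 overlap an exon of another gene, beside 52 of all 185 members. These are descriptions and were not tested.

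None of the 28 listed corepressor genes that KRAB proteins work with was called higher by edgeR. All 28 were tested, 0 were higher and 8 were lower (28.6%), against 10.2% higher and 12.8% lower over all genes. By unadjusted p under 0.05, 2 were higher and 11 lower, and DESeq2 called 2 higher (Mphosph8 and Morc3) and 8 lower. The list had a median log2 fold change of -0.04 against -0.02 over all genes. Trim28 itself had 185, 168, 177, 173 and 178 CPM in hypoxia, against 164 (lowest), 169 (median) and 178 CPM (highest) in control, with overlapping groups (log2 fold change 0.05, adjusted p = 0.292, edgeR). Setdb1 averaged 78.3 ± 2.36 CPM in hypoxia and 76.9 ± 4.51 CPM in control (0.03, adjusted p = 0.696, edgeR). Atf7ip, the nuclear partner of Setdb1, had 111, 118, 111, 107 and 108 CPM in hypoxia, all below the control range of 119.9 to 125 CPM (-0.14, adjusted p = 0.00615, edgeR). Mphosph8, a HUSH subunit, averaged 76.4 ± 4.6 CPM in hypoxia and 69.2 ± 5.51 CPM in control (0.14, adjusted p = 0.0663, edgeR).

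Other corepressor genes fell as well. The methyltransferase Suv39h2 fell by 0.37 and the DNA methylation cofactor Uhrf1 by 0.29 on the log2 scale (adjusted p = 0.0109 and 0.0164, edgeR), and Chd4, the NuRD remodeller, fell by 0.11 (adjusted p = 0.0198, edgeR). Of 10 markers of dividing cells, all had negative values and 2 were lower. They summed to 111 to 135 CPM in hypoxia and 124 to 155 CPM in control. Of 10 interneuron markers, 8 had negative values, 2 were lower and 1 was higher. Of 9 tested markers of the oligodendrocyte lineage, 3 were lower and 8 had negative values, with sums of 112 to 144 CPM in hypoxia and 129 to 179 CPM in control. Of 10 excitatory neuron markers, 3 were higher and 0 lower, and of 10 astrocyte markers 1 was lower. Among all 16319 genes tested, 8794 had negative values, 12.8% were lower and 10.2% higher. The part of these cell types in the result was not tested. The count of 8 called corepressor genes was sensitive to single libraries, with 4 called without control 2, 5 without hypoxia 1 and 13 without control 1.

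In the authors' deposited table of genes higher in hypoxia, 36 of 2099 genes were members, and these included all 31 called higher here. The authors' deposited table of lower genes listed 15 members among 1693 genes, and 14 of these members were among the 16 called lower here. Of the 16319 genes tested here, 156 were members. The authors' tables rest on the same 11 libraries, so shared calls are not independent evidence.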

How the data were processed

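Each library has a table of raw, whole-number counts per gene that the authors deposited. Libraries of polyadenylated RNA were made with TruSeq v2, a kit without strand marking, and read as single ends of 50 bases, per the labels' protocols. The submitters' processing notes name build mm10, Subread 1.5.1 with featureCounts, the aligner STAR 2.5.2b, DESeq2 and FastQC 0.11.5. Which annotation release and strand setting were used, and how reads with several matches were treated, is not given in the sources used here. The authors also deposited tables of log2 fold changes and adjusted p-values, with a normalized signal per library, and these were used only to list shared calls.

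The members and gene lists were chosen with earlier results of these data known. Genes with at least 10 counts in at least 5 libraries were tested with edgeR 4.0.16 (R 4.3.3), using TMM and glmQLFTest, 2-sided, with no covariate and with Benjamini-Hochberg adjustment over 16319 genes. The procedure was checked on simulated counts. An SE is the log2 fold change over the square root of F. Genes named are the 12 higher and 12 lower members with the smallest p, the 3 most abundant and 20 with a described role, plus Trim28, Setdb1, Atf7ip, Mphosph8 and up to 4 more called corepressor genes, 1 of which is not reported here. Genes outside this rule are named where a run or a small count called for it, after their values were seen. Symbols, positions and exon lengths came from GENCODE M21 (GRCm38). A KRAB match needed 12 of 16 anchor residues. Libraries of one group differed beyond sampling noise in every pair. Control pairs holding control 1 or control 2 had a chi-square per degree of freedom of 8.34 to 26.2. Pairs among controls 3 to 6 had 2.32 to 5.01, and hypoxia pairs had 2.41 to 9.76. Alternatives were DESeq2 1.42.0, other filters, scalings and single libraries left out, and, chosen after seeing the data, a GC correction, members with few shared windows and replicates 1 to 5 alone.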

Additional observations from a re-analysis of the deposited data

Results flagged for a closer look

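Single libraries stood apart from the rest of their group, by Dixon's test, for 9 of 84 groups of values checked, where chance gives about 1 in 20. Hypoxia 5 was low for Zfp719, at 36.2 CPM where the other hypoxia libraries had 38.2 to 38.8 CPM. It was also low for Zfp638, at 145 CPM where the others had 176 to 185 CPM, and high for Zfp689, at 5.43 CPM where the others had 4.37 to 4.61 CPM. Hypoxia 1 was high for Zfp746, at 25.7 CPM where the others had 23.4 to 24 CPM.

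Control 1, the shallowest library, was high for Zfp788 (54.2 CPM, others 45 to 47.0 CPM), Zfp869 (14.9 CPM, others 12.4 to 13 CPM) and Zfp644 (97.2 CPM, others 80.4 to 85.0 CPM). It was low for Zfp687 (23.4 CPM, others 26.2 to 27.5 CPM). Control 2 was low for Zfp689, at 4.73 CPM where the other controls had 5.93 to 6.63 CPM.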

How the results depend on the processing

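Of the 28 named members that were called, 22 kept their call under all 19 alternatives and none turned direction. The other 6 lost it in some, namely Zfp618, Zfp746, Zfp747, Zfp760, Zfp799 and Zfp804a. Of the 13 not called, 5 were called under some alternative, namely Zfp622, Zfp638, Zfp644, Zfp652 and Zfp711. With DESeq2, 36 members were higher and 14 lower, where 12.4% of all genes tested were higher and 11.8% lower. Leaving out single libraries gave 25 to 40 higher and 12 to 18 lower members, and 4 to 13 called corepressor genes. The shares over all genes then ran from 8.05% to 11.3% higher and from 10.1% to 13.5% lower. With the GC correction, 52 members were higher and their median log2 fold change was 0.10. The median over all genes tested moved as well, from -0.02 to 0.02, and 18.1% of all genes were higher.

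Correlations of same-numbered deviations ran from -0.10 to 0.31, and only numbers 2 and 5 correlated best with their own. Whether replicate numbers pair the libraries cannot be told from so few values. With the replicate block, 24 members were higher and 13 lower, against 29 and 15 for the same libraries without it, and 4 corepressor genes were called. Of all genes tested, 7.99% were higher and 10.2% lower with the block, against 9.35% and 11.6% without it. The calls of Zfp747, Zfp618 and Zfp746 were lost with the block (adjusted p = 0.0758, 0.0631 and 0.115, edgeR). Members near no change turned sign, and the cause was not tested. With the replicate block, the log2 fold change of Zfp703 was -0.0086 and that of Zfp809 0.0035, and for replicates 1 to 5 without it they were -0.010 and 0.0094. With the GC correction, Zfp706 was at 0.021 and Zfp809 at 0.0053. Leaving out single libraries gave -0.012 to 0.041 for Zfp703, -0.0075 to 0.036 for Zfp704, -0.042 to 0.0019 for Zfp706 and -0.079 to 0.020 for Zfp809.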
